A study of Mus musculus with 12 samples.

Results

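The 2 cardiac myosin heavy chain genes Myh6 and Myh7, the myosin binding protein gene Mybpc3 and the cardiac myosin light chain kinase gene Mylk3 were examined across cell populations sorted from differentiating mouse embryonic stem cells. They were chosen by name, with earlier results of these data known. All 4 were measured among 18193 genes that had a probe set listing a single gene. The cells came from embryoid bodies, stem cell aggregates that form the early germ layers, dissociated on day 6. All of them carried a pair of transgenic reporters. Red dsRed marked the second heart field, from which the right ventricle and outflow tract form, and green eGFP was driven by an enhancer specific to the heart. Flow sorting gave double-positive (Red+/Green+), red-only (Red+/Green-), green-only (Red-/Green+) and double-negative (Red-/Green-) cells, and each population was hybridised to 3 Affymetrix arrays, 1 per experiment (lettered A to C). Whether these were separate cultures is not stated, so p-values measure the spread between these arrays, which may be partly technical. Each population is a bulk sort on a reporter, so fewer cells of a type and less RNA per cell cannot be told apart. Array signals are given as linear intensities per probe set, with no read depth, and 3 arrays per population limit the precision.

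A myosin heavy chain is the motor of the thick filament of the sarcomere. Myh6 encodes the alpha chain, a fast ATPase typical of the atrium and the adult mouse ventricle, and Myh7 the slower beta chain of the embryonic ventricle and of slow skeletal muscle. Cardiac myosin binding protein C, from Mybpc3, lies along the thick filament and tunes the access of myosin heads to actin. The kinase from Mylk3 phosphorylates the ventricular regulatory light chain.

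Myh6 was read from probe set 1448826_at, Myh7 from 1448553_at, Mybpc3 from 1418551_at and Mylk3 from 1439101_at. Myh6 had 1 other probe set, 1417729_at, and the other genes had none. A further 2 probe sets listed Myh6 and Myh7 together and were left out. Myh6 and Myh7 are adjacent protein-coding genes on mouse chromosome 14 and encode closely related proteins, so some signal may pass between their probe sets. That was not tested, since no probe sequences were used here.

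All 4 genes were highest in double-positive cells, followed by green-only, red-only and double-negative cells. The same order of means was found in 9.24% of the 13698 genes tested. In an F-test among the populations, all 4 genes passed (adjusted p = 3.25e-08 for Myh6, 8.20e-08 for Myh7, 6.36e-08 for Mybpc3 and 5.82e-06 for Mylk3), as did 32.3% of genes. The sort itself used a cardiac enhancer, so the populations were not defined independently of cardiac gene activity.

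Myh6 measured 1222, 849 and 713 intensity units in the double-positive arrays of experiments A, B and C. It measured 376, 585 and 514 in green-only arrays and 78.4, 41.6 and 92.2 in red-only arrays. The double-negative arrays lay at 13.3, 10.7 and 10.4, just above the array medians of 6.29 to 6.73. None of the 4 populations overlapped another for this gene, and the means were 928 ± 263, 492 ± 106, 70.7 ± 26.2 and 11.5 ± 1.63 (SD, n = 3) in that order. How many of all genes separate all 4 populations was not counted, here or for the genes below. Double-positive arrays lay above double-negative arrays without overlap in 20.1% of genes.

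Myh7 measured 3965, 1997 and 2216 in double-positive and 1358, 1043 and 1244 in green-only arrays. It measured 446, 268 and 496 in red-only and 65.4, 38.2 and 53.2 in double-negative arrays. The populations again did not overlap, with means of 2726 ± 1079, 1215 ± 159.7, 403 ± 120.0 and 52.3 ± 13.6 (SD, n = 3). Its double-negative signal stayed several times above the array medians, so its ratios depend little on the floor of the arrays.

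Mybpc3 measured 812, 503 and 466 in double-positive and 207, 242 and 233 in green-only arrays. In red-only arrays it measured 66.1, 56.7 and 95.3, and in double-negative arrays 26.0, 17.8 and 18.05. No populations overlapped, and the means were 594 ± 190.3, 227 ± 17.9, 72.7 ± 20.1 and 20.6 ± 4.67 (SD, n = 3). The green-only arrays of this gene were the tightest of any population, with a coefficient of variation of 7.86%.

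Mylk3 measured 121, 75.1 and 80.4 in double-positive and 30.0, 24.7 and 26.3 in green-only arrays. It measured 14.4, 13.7 and 28.0 in red-only and 5.43, 5.71 and 10.9 in double-negative arrays. The double-positive arrays stood well clear of all others. The red-only array of experiment C fell inside the green-only range, and the double-negative arrays of experiments A and B lay below their array medians. The means were 92.1 ± 24.9, 27.01 ± 2.75, 18.7 ± 8.04 and 7.34 ± 3.06 (SD, n = 3), so the low end of this gene is close to the floor of the measurement.

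**Figure D1:**
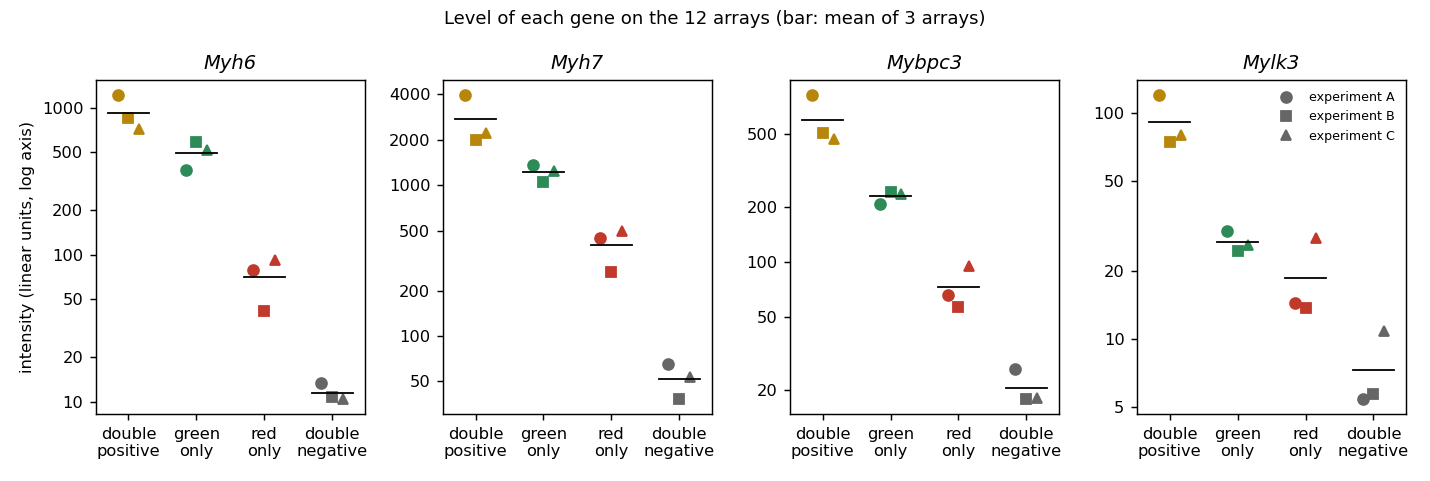
Intensity of Myh6, Myh7, Mybpc3 and Mylk3 (linear units on a log axis) on the 12 arrays, by sorted population. Symbols mark experiments A, B and C and bars the mean of 3 arrays; every gene steps down from double-positive through green-only and red-only to double-negative cells, and only for Mylk3 do the green-only and red-only arrays overlap.

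Double-positive cells had far more transcript of the contractile genes than double-negative cells. The ratio of mean intensities was 80.9 for Myh6, with 91.6, 79.2 and 68.7 in experiments A, B and C. It was 52.2 for Myh7, 28.8 for Mybpc3 and 12.5 for Mylk3. The other Myh6 probe set, near the floor in double-negative cells, gave means of 16.1 and 2.73, a smaller ratio. The Mylk3 ratio was 22.2, 13.1 and 7.40 in experiments A, B and C, and the double-negative arrays of A and B behind it lay below their array medians, so its size is uncertain.

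On the log2 scale with a pseudocount of 4.10, which understates the change of low genes, Myh6 was higher in double-positive cells by 5.87 ± 0.26 (SE; adjusted p = 8.20e-09) and Myh7 by 5.56 ± 0.27 (adjusted p = 1.40e-08). Mybpc3 was higher by 4.57 ± 0.21 (adjusted p = 9.68e-09) and Mylk3 by 3.07 ± 0.24 (adjusted p = 7.65e-07). Genes called higher made up 13.9% of all genes in this comparison, against 4 of 4 here, and 20.1% of genes had non-overlapping arrays with double-positive cells higher. Myh6 ranked 2, Myh7 8, Mybpc3 16 and Mylk3 61 among all genes by the size of the increase. The median over the 4 genes was 5.06, against -0.01 over all genes tested.

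Green-only cells also exceeded double-negative cells in all 4 genes (9.34% of genes were called higher). Myh6 rose by 4.97 ± 0.26 and Myh7 by 4.46 ± 0.27 on the log2 scale (adjusted p = 7.16e-08 and 2.62e-07). Mybpc3 rose by 3.24 ± 0.21 (adjusted p = 4.70e-07). The kinase gene Mylk3 rose less, by 1.47 ± 0.24 (adjusted p = 7.00e-04), from 7.34 to 27.01 intensity units.

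In red-only cells all 4 genes again lay above double-negative cells, by smaller amounts (10.9% of genes were called higher). Here Myh7 rose most, by 2.84 ± 0.27 (adjusted p = 1.23e-05), ahead of Myh6 with 2.20 ± 0.26 (adjusted p = 6.34e-05). Mybpc3 rose by 1.62 ± 0.21 (adjusted p = 0.000143) and Mylk3 by 0.97 ± 0.24 (adjusted p = 0.00890). The 3 comparisons with double-negative cells share the same control arrays and are set side by side for that reason.

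**Figure D2:**
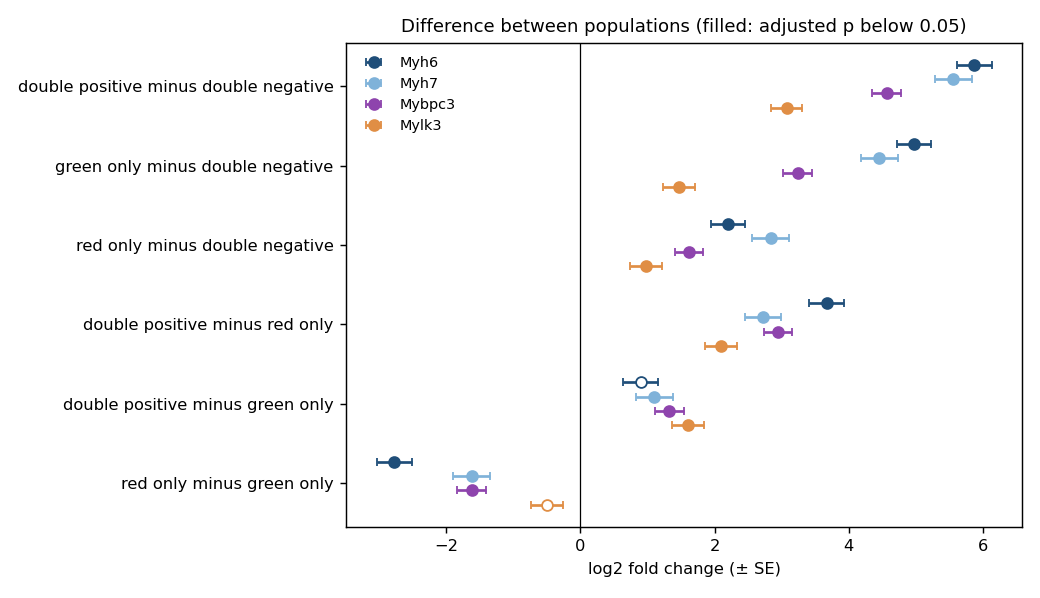
Log2 fold change ± SE of the 4 genes in the 6 comparisons of populations; filled points passed an adjusted p below 0.05. Against double-negative cells Myh6 leads in double-positive and green-only cells and Myh7 in red-only cells, Mylk3 leads in double-positive against green-only cells, and only Myh6 in double-positive against green-only and Mylk3 in red-only against green-only cells did not pass.

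Between double-positive and red-only cells, which differ in the green reporter, all 4 genes were higher in double-positive cells (5.94% of genes were). Myh6 differed most, by 3.67 ± 0.26 on the log2 scale (adjusted p = 3.85e-06), a ratio of means of 13.1. Mybpc3 differed by 2.95 ± 0.21 (adjusted p = 4.22e-06), Myh7 by 2.72 ± 0.27 (adjusted p = 3.23e-05) and Mylk3 by 2.10 ± 0.24 (adjusted p = 7.67e-05). Myh6 was the third most increased of all genes tested in this comparison.

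Between double-positive and green-only cells, which differ in the red reporter, the order of the genes turned around. Mylk3 differed most, by 1.60 ± 0.24 (adjusted p = 0.00252), and was the fifth most increased of all genes. Its double-positive mean was 3.41 times the green-only mean, with ratios of 4.02, 3.04 and 3.06 in the 3 experiments. Mybpc3 was higher by 1.33 ± 0.21 (adjusted p = 0.00380) and Myh7 by 1.10 ± 0.27 (adjusted p = 0.0325), while 2.85% of genes were called higher.

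Myh6 was 0.90 ± 0.26 higher in double-positive than in green-only cells and did not pass (adjusted p = 0.0634, 95% interval 0.34 to 1.46). With the experiment letter as a replicate block it passed, narrowly (adjusted p = 0.0488). The call of Myh7 was lost without the double-positive array of experiment A (0.80, adjusted p = 0.121) or C (1.22, 0.0501), or without the green-only array of experiment B (0.997, 0.0873) or C (1.12, 0.0737). That double-positive array of experiment A had the highest value of every one of the 4 genes. It also had the highest ratio of 3' to 5' actin signal, an RNA quality measure, at 1.55 against 1.32 to 1.48 on the other arrays. This ratio was higher in all double-positive arrays (1.40 to 1.55) than in any double-negative array (1.34 to 1.36). The same ratio for Gapdh overlapped between them (0.942 to 0.951 against 0.910 to 0.970). The part of RNA quality in these results was not tested.

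Red-only and green-only cells, each with a single reporter, differed in 3 of the 4 genes, which were lower in red-only cells (1.77% of genes were called lower). Myh6 was lower by 2.77 ± 0.26 on the log2 scale (-2.77, adjusted p = 0.000122), and of the 13698 genes only 2 fell further. Mybpc3 differed by -1.62 ± 0.21 (adjusted p = 0.00140) and Myh7 by -1.62 ± 0.27 (adjusted p = 0.00596). Mylk3 differed by -0.50 ± 0.24 and did not pass (adjusted p = 0.352, 95% interval -1.01 to 0.01), so a 2-fold difference is inside its interval.

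The difference between genes was tested within arrays. For each array the log2 value of one gene was subtracted from that of another, and the 4 populations were compared by an exact permutation test over all 369600 assignments of arrays. The level of one probe set against another has no meaning, but a shift of the difference between populations shows unequal change. All 6 pairs of genes shifted, with p-values adjusted over the 6 pairs. The pairs share genes and are not independent, and how often other pairs of genes shift was not tested.

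The heavy chain pair was the closest call. Myh6 minus Myh7 was -1.69, -1.23 and -1.63 in double-positive arrays. It was -1.84, -0.83 and -1.27 for green-only and -1.99, -1.51 and -1.99 for double-negative arrays. In red-only arrays it was -2.45, -2.57 and -2.38, below every array of the other populations (exact p = 0.0109, adjusted p = 0.0109). On these values red-only cells had the lowest alpha relative to beta chain signal, by 1.15 on the log2 scale against green-only cells. The gap to double-negative cells is less certain. Myh6 measured only 10.4 to 13.3 intensity units there, against 38.2 to 65.4 for Myh7. At such low values the pseudocount raises Myh6 relative to Myh7, so the size of that gap depends on it.

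Between single populations, 3 against 3 arrays cannot give a permutation p below 0.1. In every experiment the heavy chain difference was lower in red-only than in green-only arrays, by 0.60, 1.74 and 1.11, and than in double-negative arrays. Double-positive arrays overlapped both green-only and double-negative arrays. Within experiments, the difference rose from double-negative to double-positive arrays by 0.30, 0.28 and 0.36. Comparisons of this pair with double-negative arrays rest partly on low Myh6 values, as described above.

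Myh7 minus Mybpc3 averaged 2.39 in each single-reporter population and 2.17 in double-positive cells, with overlapping arrays. In double-negative cells it averaged 1.17 (exact p = 0.00870, adjusted p = 0.0104). Within experiments A, B and C it was lower in double-positive than in green-only arrays (-0.41, -0.11 and -0.16) and than in red-only arrays (-0.40, -0.18 and -0.09). Myh6 minus Mybpc3 averaged 1.08 in green-only and 0.65 in double-positive cells, then -0.08 among red-only and -0.66 among double-negative cells, without overlap (exact p = 6.5e-05, the smallest these permutations can give, adjusted p = 0.00013).

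Mylk3 departed furthest from the heavy chains. Myh6 minus Mylk3 ran from 0.47 in double-negative to 1.70 in red-only, 3.27 in double-positive and 3.97 in green-only cells. Myh7 minus Mylk3 ran from 2.30 to 4.16, 4.79 and 5.29 in the same order (exact p = 6.5e-05 and adjusted p = 0.00013 for both). Mybpc3 minus Mylk3 showed the same order, from 1.13 to 1.77, 2.62 and 2.90 (exact p = 0.00039, adjusted p = 0.000584). In the pairs with a heavy chain, green-only arrays lay above double-positive arrays without overlap, so the kinase gene was lower relative to the heavy chains in green-only than in double-positive cells. The differences with double-negative cells rest partly on Mylk3 values near the array floor.

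**Figure D3:**
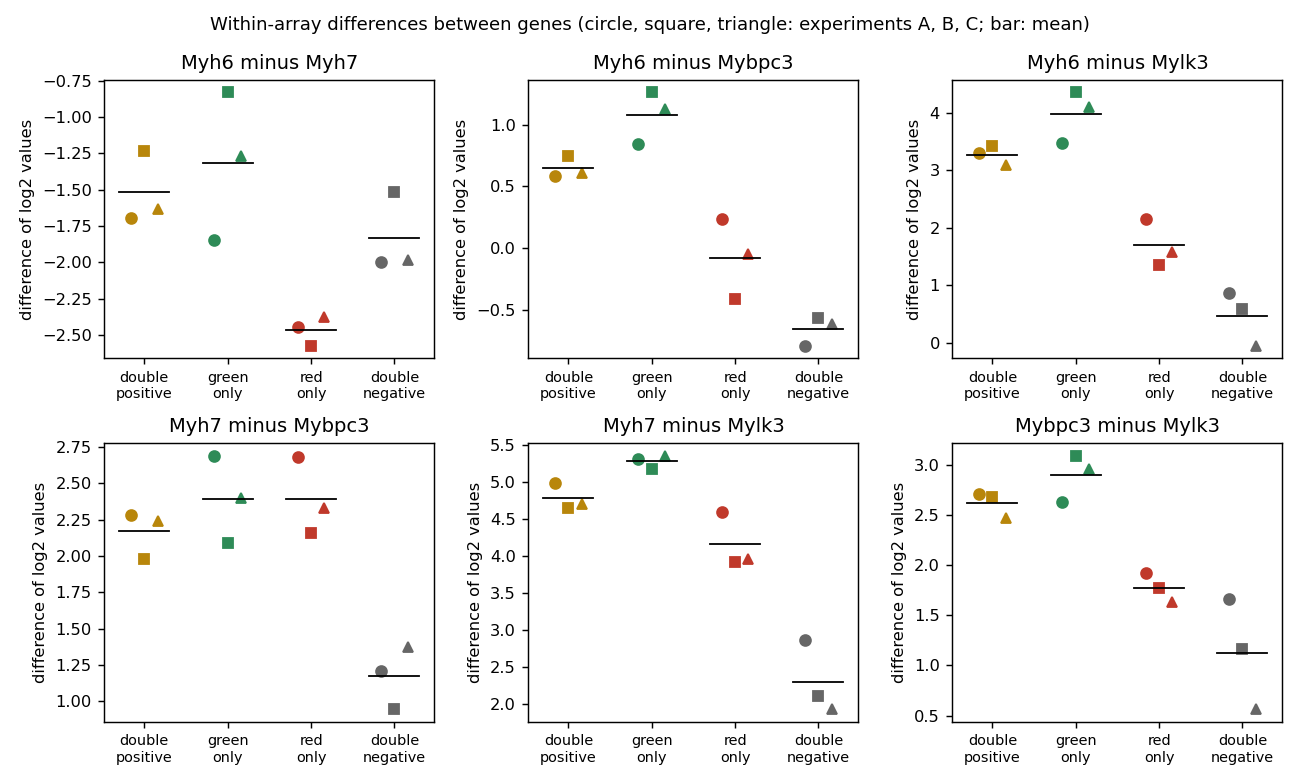
Difference of log2 values between 2 genes on the same array, for the 6 pairs and 4 populations; symbols mark experiments A, B and C and bars the mean. The red-only arrays are lowest for Myh6 minus Myh7 (-2.57 to -2.38), whereas for every pair with Mylk3 the double-negative mean is lowest and the green-only mean highest.

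A contrast of all 4 populations asked whether the difference with the red reporter was the same in green-positive and green-negative cells (10.5% of genes differed). Myh7 had an interaction of -1.73 ± 0.38 on the log2 scale (adjusted p = 0.0122): with the red reporter it was higher by 2.84 in green-negative but by 1.10 in green-positive cells. Myh6 had -1.30 ± 0.37 (adjusted p = 0.0392), a call lost without any 1 of 9 of the 12 arrays. Only leaving out the red-only array of experiment B or the double-positive or green-only array of experiment A kept it. Mybpc3 (-0.29 ± 0.30, adjusted p = 0.647) and Mylk3 (0.63 ± 0.33, adjusted p = 0.293) did not pass, with 95% intervals of -0.95 to 0.36 and -0.10 to 1.35.

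The weaker Myh6 probe set, 1417729_at, gave 21.3, 13.2 and 13.9 in double-positive and 5.35, 5.72 and 5.81 in green-only arrays. In red-only and double-negative arrays it gave 2.42 to 3.40, near the lowest value in the table, 2.09. It therefore carries little information outside double-positive cells: its red-only against double-negative difference was 0.047 (adjusted p = 0.852), and its interaction was 0.99 (adjusted p = 0.00345), opposite in sign to that of the brighter probe set. Between double-positive and green-only cells it did pass, at 1.04 (adjusted p = 0.00116).

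Since the 4 genes rose together in reporter-positive cells, their promoter windows are shown, from RefSeq with build GRCm38.p6, from 250 bases before to 50 after a gene's start. All 4 genes matched, with 2 windows each for Myh7 and Mylk3, of which the one with more motif matches is printed. Capitals mark matches on either strand. The searched letters were TATAAA, and AGATAA and TGATAA as sites of GATA factors. CATTCC is the MCAT element bound by the TEAD family. The letters CAAGTG are a site of NK-type homeobox proteins such as Nkx2-5, and the CArG and MEF2 motifs were also searched. The E-box CANNTG, which also covers CAAGTG, was counted but not marked.
Myh6, chr14:54966558-54966857, minus strand: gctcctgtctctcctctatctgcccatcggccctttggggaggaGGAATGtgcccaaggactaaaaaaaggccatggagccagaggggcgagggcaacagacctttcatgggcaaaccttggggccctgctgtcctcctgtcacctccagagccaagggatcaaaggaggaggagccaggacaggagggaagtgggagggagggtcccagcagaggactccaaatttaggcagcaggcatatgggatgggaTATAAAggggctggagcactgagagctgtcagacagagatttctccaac
Myh7, chr14:54994577-54994876, minus strand: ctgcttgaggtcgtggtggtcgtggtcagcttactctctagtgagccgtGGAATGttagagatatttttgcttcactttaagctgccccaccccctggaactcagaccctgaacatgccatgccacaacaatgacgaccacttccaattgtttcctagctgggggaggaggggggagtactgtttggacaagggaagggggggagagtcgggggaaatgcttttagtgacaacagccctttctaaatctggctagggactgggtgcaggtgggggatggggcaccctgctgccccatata
Mybpc3, chr2:91117894-91118193, plus strand: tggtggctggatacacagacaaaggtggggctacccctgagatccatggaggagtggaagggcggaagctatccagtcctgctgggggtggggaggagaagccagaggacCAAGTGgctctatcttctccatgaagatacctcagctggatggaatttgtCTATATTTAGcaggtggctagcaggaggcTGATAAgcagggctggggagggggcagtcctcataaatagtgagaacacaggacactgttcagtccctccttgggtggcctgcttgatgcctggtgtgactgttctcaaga
Mylk3, chr8:85380992-85381291, minus strand: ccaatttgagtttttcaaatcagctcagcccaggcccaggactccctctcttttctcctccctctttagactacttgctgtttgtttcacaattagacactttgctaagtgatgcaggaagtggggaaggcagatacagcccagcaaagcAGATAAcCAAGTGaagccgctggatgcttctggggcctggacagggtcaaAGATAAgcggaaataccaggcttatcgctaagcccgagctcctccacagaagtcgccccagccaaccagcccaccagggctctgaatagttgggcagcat

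The printed windows of both heavy chains held the MCAT letters on the other strand, as GGAATG. Its first base lay at position -206 in Myh6 and -201 in Myh7, counted from the listed start of each window. The second Myh7 window, whose start lies further downstream, held no marked motif, so the closeness of these positions depends on which Myh7 start is used. Of all 32851 windows, 14.7% held MCAT. The printed windows of the 2 regulators each held a GATA and a CAAGTG match, and that of Mybpc3 a MEF2 match at position -90. The second Mylk3 window held MCAT, at position -148, and neither a GATA nor a CAAGTG match. Shares are per single window, whereas the printed Myh7 and Mylk3 windows were picked for having more matches. AGATAA was found in 11.2%, TGATAA in 9.05%, CAAGTG in 13.6% and MEF2 in 3.19% of windows. TATAAA, in 13.6% of windows, was found in Myh6, with its first base at position 1 counted from the listed start. CArG (1.63%) was found in none of the 4 genes, and an E-box (72.3%) in every printed window. These are matches of letters, not measured sites.

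Of 15 thick filament partners, light chains and scaffold proteins among them, 11 were tested, and 9 rose in double-positive relative to double-negative cells (13.9% of all genes were called higher). The median over the 11 was 4.72. This list and those below were written with earlier results of these data known, so their counts are not independent of the data. The essential light chain genes Myl3 (5.85 ± 0.34, adjusted p = 5.59e-08) and Myl4 (5.78 ± 0.23, adjusted p = 4.17e-09), the ventricular regulatory light chain gene Myl2 (5.84 ± 0.28, adjusted p = 1.06e-08) and the titin gene Ttn (5.67 ± 0.25, adjusted p = 7.91e-09) changed most. The other C-protein genes Mybpc1 (0.05) and Mybph (0.04) did not pass, and Mybpc2, Myom2 and Myom3 lay below the filter on low values. The population means of Mybpc1 and Mybph reached at most 5.68 and 6.24, below the array medians. For them, absence of signal and absence of change cannot be told apart. In double-positive against green-only cells 6 of the 11 were higher (2.85% of all genes were), or 7 with the replicate block, which added Myl3 (adjusted p = 0.0203). The count was 3 without the double-positive array and 4 without the green-only array of experiment A (the genes that passed the filter are not all of the list).

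Between red-only and green-only cells, 7 of the 11 partners were lower in red-only cells (1.77% of all genes were), 4 did not pass, and the median was -1.26. The ventricular light chain genes Myl2 (-3.38 ± 0.28, adjusted p = 5.89e-05) and Myl3 (-3.08 ± 0.34, adjusted p = 0.000418) lay beside Myh6 (-2.77). The atrial light chain gene Myl7 (-1.08 ± 0.17, adjusted p = 0.00362), with Myl4 (-1.54) and Ttn (-1.57), lay closer to Myh7 and Mybpc3 (-1.62 each). The suffix of the Myl3 probe set, 1427768_s_at, marks probes that more than 1 transcript may share.

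The heavy chain genes of other muscles were near the array floor. Of 12 other heavy chain genes, 10 were measured and 4 passed the filter on low values. The skeletal genes Myh1, Myh2, Myh3, Myh4 and Myh8 and the smooth muscle gene Myh11 did not pass it, with population means between 3.48 (Myh8) and 5.60 (Myh2) intensity units. In double-positive against double-negative cells all 4 tested were called, 2 in each direction (31.5% of all genes were called in either). The non-muscle gene Myh9 was lower in double-positive cells, against double-negative cells (-1.33 ± 0.19, adjusted p = 0.000149) and the non-muscle gene Myh10 higher (0.50 ± 0.12, adjusted p = 0.00475). Myh7b was also higher (0.38 ± 0.09, adjusted p = 0.00669) and Myh14 lower (-0.44 ± 0.10, adjusted p = 0.00438).

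Of 17 kinases, phosphatases and related genes that act on myosin light chains or the C-protein, 12 were tested. In double-positive against double-negative cells 7 were higher (13.9% of all genes were) and 0 lower, with a median of 0.40. With the replicate block 9 were higher, Dapk3 (adjusted p = 0.0115) and Gsk3b (0.0349) being added. The changes were small beside that of Mylk3 (3.07): the myosin phosphatase subunits Ppp1r12b (0.80 ± 0.11, adjusted p = 0.000148) and Ppp1r12a (0.63 ± 0.10, adjusted p = 0.000246), and the kinases Prkd1 (0.68 ± 0.14, adjusted p = 0.00219) and Rock1 (0.52 ± 0.10, adjusted p = 0.00131), led. The other myosin light chain kinase genes Mylk and Mylk4 did not pass the filter, and Mylk2, the skeletal kinase, differed by 0.00075 ± 0.08 (adjusted p = 0.996). The population means of Mylk2, 6.57 to 6.88, lay near the array medians, so it had little signal in which to see a change.

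Myosin folding and turnover genes were tested in 11 of 13 cases. In double-positive against double-negative cells 8 were higher (13.9% of all genes were) and 1, the chaperone gene Hsp90aa1 (-0.51), was lower; the median was 1.76. The muscle myosin chaperone gene Unc45b (4.70 ± 0.21, adjusted p = 8.65e-09) and its partner Smyd1 (4.54 ± 0.20, adjusted p = 7.13e-09) led, followed by the small heat shock genes Hspb7 (3.78 ± 0.18, adjusted p = 1.06e-08) and Cryab (3.21 ± 0.25, adjusted p = 8.64e-07). Unc45a, the general form of the myosin chaperone, differed by -0.22 and did not pass. Between red-only and green-only cells 4 genes were lower in red-only cells (1.77% of all genes were), Cryab most (-2.16 ± 0.25, adjusted p = 0.000550).

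All 19 listed transcriptional regulators of the heavy chain genes were tested. In double-positive against double-negative cells 15 were higher (13.9% of all genes were) and 1, the chromatin remodeller gene Smarca4 (-0.26), was lower; that call was lost without the double-positive array of experiment A, leaving 15 higher and 0 lower. The median was 1.02. The largest changes were in Mef2c (4.20 ± 0.22, adjusted p = 2.14e-08), Myocd (4.03 ± 0.11, adjusted p = 4.03e-10), Nkx2-5 (3.40 ± 0.15, adjusted p = 8.30e-09) and Hand2 (3.24 ± 0.23, adjusted p = 3.11e-07). Of the thyroid hormone receptor genes, known regulators of the heavy chain switch, Thra was higher (0.87) and Thrb differed by 0.02 without passing. The population means of Thrb, 5.91 to 6.68, lay near the array medians, so it too had little signal. Srf (1.02) and Tead1 (1.06), whose products bind CArG and MCAT letters, were also higher. Thra, Srf and Tead1 are named for their known roles, after their values were seen.

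Between red-only and green-only cells 1 of these 19 regulators passed without the replicate block, Hopx, which was higher in red-only cells (0.51 ± 0.11, adjusted p = 0.0256), as were 1.32% of all genes. With the block, Hand2 passed too, also higher in red-only cells (0.75 ± 0.11, adjusted p = 0.00218). The median was -0.05. Without the block, Mef2c differed by 0.05 (adjusted p = 0.958), Myocd by -0.34 (adjusted p = 0.156), Nkx2-5 by -0.48 (adjusted p = 0.126) and Hand2 by 0.75 (adjusted p = 0.110). Myocd and Nkx2-5 were lower in red-only cells in all 3 experiments and did not pass with the block either (adjusted p = 0.0844 and 0.0509). Beside these values stand -2.77 for Myh6 and -1.62 for Myh7; whether the regulators as a list differ from the heavy chains was not tested.

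**Figure D4:**
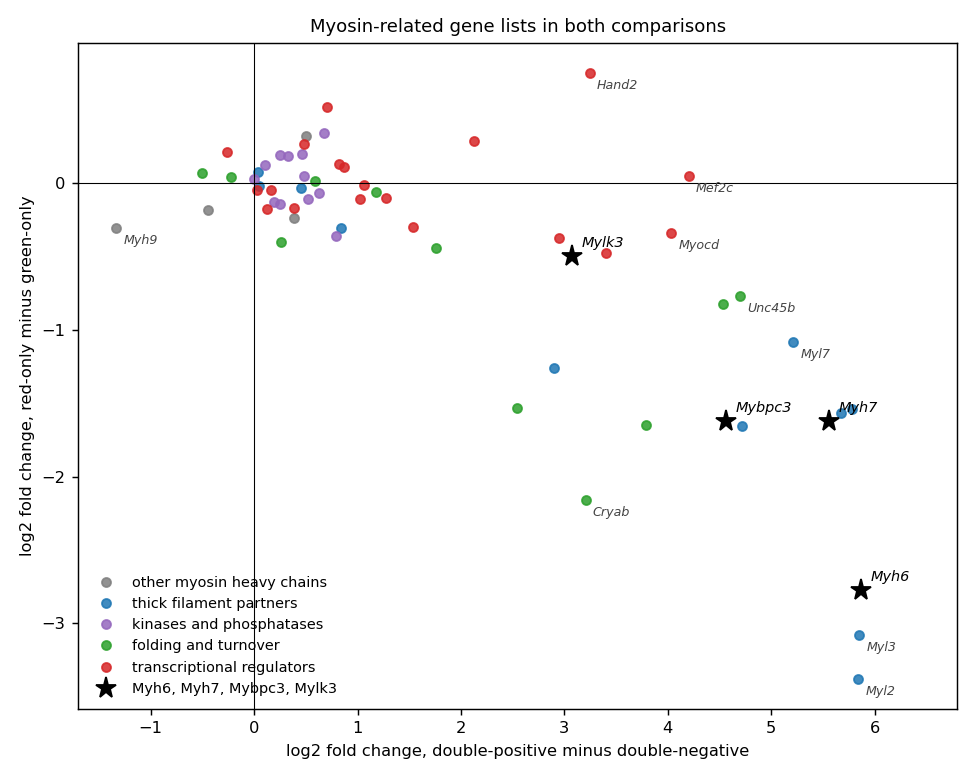
Log2 fold change of double-positive minus double-negative cells (horizontal) against that of red-only minus green-only cells (vertical) for each tested gene of the 5 lists, with the 4 cardiac myosin genes as stars. Transcriptional regulators lie between -0.48 and 0.75 on the vertical axis, reaching 4.20 on the horizontal one, whereas Myh6, Myh7 and the light chain genes lie between -1.08 and -3.38 on the vertical axis.

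By the pattern over the 12 arrays, described by Pearson's r of log2 values, Myh6 was most like Atp2a2, the calcium pump of the sarcoplasmic reticulum (r = 0.994), followed by Myom1, Hspb7, Gyg and Tpm1 (0.990 to 0.989). Myh7 was most like Cdh2, which encodes N-cadherin (0.996), and Acta2, the smooth muscle actin gene that early heart muscle also expresses (0.995), followed by Pgam2, Myl4 and Apobec2. Mybpc3 was most like the M-band gene Myom1 (0.997) and Hspb7 (0.995), followed by Rassf5, Atp2a2 and Armh4. For Mylk3 the nearest were Abtb2 (0.990), Uqcrfs1 (0.983), Lclat1, Apbb1 and Cpeb2, none of which code for sarcomere proteins. The heavy chains correlated with each other at 0.979, and Mylk3 with Myh6 at 0.899, which ranked Mylk3 241 among all genes by likeness to Myh6. The arrays share experiments and populations, so these values describe likeness only.

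Markers of other tissues were read beside these results. The summed level of 8 cardiomyocyte markers ran from 8354 to 10886 in double-positive, 4589 to 5754 in green-only, 1409 to 2263 in red-only and 188 to 268 in double-negative arrays, the same order as the 4 genes. The 9 skeletal muscle markers summed to 76.2 to 83.4, 66.1 to 78.3, 66.2 to 70.4 and 62.3 to 71.3, and Myf5, Myf6, Pax7 and Tnnt3 were at or below the median of every array. Of the 5 skeletal markers tested, 1, Tnni2, differed between double-positive and double-negative cells, at 0.37 higher in the former. These markers are myogenic factors and genes of fast fibres. Tnni1, a troponin gene of early heart and slow skeletal muscle that was counted among the cardiomyocyte markers, rose from 60.1 to 2410.1 between double-negative and double-positive cells, so slow fibres, which also express Myh7, were not tested by this list.

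The 5 smooth muscle markers, led by Acta2, which early heart muscle shares, summed to 3770 to 4918 in double-positive, 2372 to 2548 in green-only, 836 to 1312 in red-only and 265 to 341 in double-negative arrays, with Myh11 at or below the median of every array. The 6 endothelial markers summed to 183 to 264 in double-positive, 263 to 811 in green-only, 456 to 663 in red-only and 119 to 214 in double-negative arrays. The 5 pluripotency markers summed to 90.2 to 132 in all reporter-positive arrays and to 1298 to 1583 in double-negative arrays, and 5 primitive erythroid markers to 57.5 to 142 against 1068 to 1960. The 5 endoderm markers were highest in green-only (163 to 787) and double-negative (214 to 401) arrays, and the 5 neural markers ran from 99.7 to 164 in all. Among green-only arrays, that of experiment A had the highest value of every endoderm marker and the lowest of every endothelial marker. There Ttr measured 417, against 55.9 and 133 in experiments B and C, and Tek 35.8, against 123 and 110. The part of these other cells in the differences between populations was not tested.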

How the data were processed

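Total RNA (5 ug per sample) from the sorted cells was labelled and hybridised to 12 Affymetrix arrays, per the labels' protocols. The authors deposited 1 table with intensity values of 45101 probe sets, linear in scale (2.09 to 8820, array medians 6.29 to 6.73), and the submitters' processing notes name MAS5. The version, the scaling target and detection calls are not given in the sources used here. The double-negative group was taken from the sample titles, since the treatment text writes its colours inconsistently.

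After leaving out 64 control probe sets, 34945 listed 1 gene, 932 several and 9160 none; 204 symbols had no current entry. Where a gene had several probe sets, the brightest on average stood for it, also for the 4 genes described, which gave 18193 genes. A pseudocount of 4.10, the 25th percentile of all values, was added before taking log2. Of these genes, 13698 had a mean of at least 3.22, the 40th percentile, and were tested. One limma fit (version 3.58.1, R 4.3.3) over the 4 populations, with 8 residual degrees of freedom, gave log2 fold changes, moderated tests and Benjamini-Hochberg adjusted p-values over all genes tested, with a threshold of 0.05. The fit and the exact permutation test over arrays, which compares all 4 populations at once without a direction, were tested on simulated data. Named list genes are up to 4 per list with the largest change past the threshold in double-positive against double-negative cells, with values of others that did not pass, and for likeness the 5 genes with the highest r. The genes described and the lists were chosen with earlier results of these data known.

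Between arrays of different populations, correlations of deviations from group means averaged 0.26 within an experiment and -0.13 between experiments. Centring on group means ties these averages to each other, so the second adds nothing to the first. Arrays of the same experiment deviated together, with correlations of 0.116 to 0.423 over 18 pairs. The experiment letters, which come from the titles, therefore pair the samples, and the text gives blocked values where they alter a call of the 4 genes or a list count it leads with; other list genes' calls are unblocked. Alternatives covered the pseudocount, quantile normalization, the filter, probe set choice, the variance model, the arrays fitted, the block and leaving out each array.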

Additional observations from a re-analysis of the deposited data

Results flagged for a closer look

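The difference between red-positive and red-negative cells depended on the green reporter for both heavy chain genes, by the test of the interaction. It was -1.73 on the log2 scale for Myh7 (adjusted p = 0.0122), from 2.84 higher in green-negative to 1.10 higher in green-positive cells. It was -1.30 for Myh6 (adjusted p = 0.0392), from 2.20 to 0.90. The Myh7 interaction kept its call without each of the 12 arrays in turn (adjusted p = 0.00319 to 0.0349), whereas that of Myh6 did not and had the opposite sign on the weaker Myh6 probe set.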

How the results depend on the processing

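Of 255 values of the 4 genes under alternatives other than leaving out an array, 244 kept their direction and call, as did 322 of 336 with 1 array left out; the 6 within-array pair results all did. The Myh6 interaction lost its call with the median as pseudocount (-1.15, adjusted p = 0.0651), with no filter (-1.30, 0.0658) and with an intensity trend and robust variances (-1.30, 0.0790), ranged from -1.62 to -1.09 without 1 array, and reversed on the other probe set (0.99, 0.00345). That probe set also gave 0.047 for red-only against double-negative, 1.04 for double-positive against green-only and -0.46 for red-only against green-only cells. Its red-only and double-negative values lie near the array floor. It kept the call but not the size of the other Myh6 differences, such as 1.55 against 5.87 for double-positive against double-negative cells. For double-positive against green-only cells, Myh7 (1.10) lost its call with no filter (adjusted p = 0.0598), with trend and robust variances (0.0882) and with only the 6 arrays compared (0.0682), and ranged from 0.80 to 1.29 without 1 array. Myh6 (0.90) passed with the replicate block (0.0488) and with the experiment B red-only array left out (0.0238), ranging from 0.68 to 1.07. The replicate block changed no other call of the 4 genes. Over all genes, calls for double-positive against green-only cells were 770, with 1283 under the replicate block, 258 with only 6 arrays and 357 to 777 without 1 array; for red-only against green-only cells they were 423, with 787, 200 and 204 to 475. Testing every probe set gave 6611 calls between double-positive and double-negative cells against 4315, with more features tested. Of the list counts, added as alternatives after seeing the data, 9 of 120 moved by over 1.5 times without an array of experiment A and 6 of 60 with the replicate block. Other causes were not tested, and Mylk3 in double-negative cells is limited by signal near the array floor.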
